A study of Mus musculus with 8 samples.

Results

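Mitochondrial ribosomal proteins are the nuclear-encoded proteins of the mitoribosome, and the genes named Mrpl (large subunit) or Mrps (small subunit) were described here in mouse liver. The members were the genes of the count table whose symbol was Mrpl or Mrps followed by a number, 77 of the 24421 genes listed, with 48 named for the large and 29 for the small subunit. Mitoribosomes translate the few messages of mitochondrial DNA, which encode core subunits of the respiratory complexes. Their proteins are made in the cytosol and imported, and they assemble on ribosomal RNAs that are transcribed in the mitochondrion. Hepatocytes are rich in mitochondria, and many of the proteins have bacterial counterparts, while others are found in mitochondrial ribosomes alone.

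The study compared livers with and without Capzb, which encodes actin capping protein beta, in C57BL/6N mice of 8 to 10 weeks of age. CAPZ_KO animals carried Albumin-CreERT2, a tamoxifen-activated recombinase driven by the albumin promoter of hepatocytes, with Capzb-fl/fl alleles, and had 5 daily tamoxifen injections that began at 4 to 6 weeks. WT animals all carried the same floxed alleles and were either injected without Cre or carried Albumin-CreERT2;Capzb-fl/fl without injection. The labels do not tell which WT library is of which kind, so deletion of Capzb and exposure to tamoxifen together with Cre cannot be told apart. Each group had 4 libraries of poly(A) RNA from perfused liver, and nothing states that they came from separate animals, so p-values measure only the spread between these libraries.

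The libraries held 12060350 to 18916315 counts (WT) and 13122355 to 16984971 (CAPZ_KO). Levels are CPM, read counts normalised to depth with TMM scaling, which sets the libraries so that most genes are centred on no change. A gene was called higher or lower at an adjusted p under 0.05 in the edgeR quasi-likelihood test over 12985 genes. Capzb stood at 139.6, 109, 118 and 114 CPM in WT and 69.4, 79.6, 64.5 and 76.4 in CAPZ_KO, with no overlap and a log2 fold change of −0.73 ± 0.125 (SE, adjusted p = 0.00134). By library sizes alone its log2 fold change was −0.10 (adjusted p = 0.442). The exact two-sided permutation test of its log2(CPM + 1) gave p = 0.0286, the smallest that 4 against 4 libraries allow. Hepatocyte markers (Alb, Ttr and others) were abundant in every library, at a summed 171181 to 219532 CPM in WT and 42883 to 64878 in CAPZ_KO, and 8 of 9 tested were lower.

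The library WT 1 stood apart in the members: it held the highest WT level for 66 of 77. Over the members, the median of log2(CPM + 1) relative to the WT mean was 0.356, −0.144, −0.066 and −0.135 in WT 1 to 4, and −0.446, −0.291, −0.282 and −0.369 in CAPZ_KO 1 to 4. WT 4 and CAPZ_KO 4 were the only libraries with Xist counts above 6 (5419 and 4067) and had no Ddx3y.

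To show the sequence before the starts of these genes, promoters from RefSeq (GRCm38.p6) were matched to 68 of the 77 members, as 74 windows of 300 bases. These were searched on both strands for letters that stand for 4 factors long linked to genes of mitochondrial proteins: NRF1 (the letters in capitals in Mrpl39 below, a palindrome), ETS factors such as the GA-binding protein (CCGGAAG), YY1 (AAGATGGC) and E-box proteins such as Myc (CACGTG). None of these motifs contains another. Examples follow, each from 170 bases before to 30 after the RefSeq start, 5′ to 3′ on the gene's own strand, with matches in capitals. Mrps27, Mrpl39 and Mrpl32 were lower and hold matches; Mrpl47, which had the lowest fold change, and Mrps6, which had the highest, hold none.
Mrps27, chr13:99344616-99344815, plus strand: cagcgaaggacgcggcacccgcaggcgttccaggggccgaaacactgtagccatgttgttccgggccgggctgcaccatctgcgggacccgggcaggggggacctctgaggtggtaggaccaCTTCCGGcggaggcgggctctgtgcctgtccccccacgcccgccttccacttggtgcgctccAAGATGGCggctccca
Mrpl39, chr16:84735215-84735414, minus strand: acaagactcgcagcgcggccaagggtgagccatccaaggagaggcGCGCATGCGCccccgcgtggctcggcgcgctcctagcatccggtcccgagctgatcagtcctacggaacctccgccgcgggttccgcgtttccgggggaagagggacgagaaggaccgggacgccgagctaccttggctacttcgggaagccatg
Mrpl32, chr13:14613008-14613207, minus strand: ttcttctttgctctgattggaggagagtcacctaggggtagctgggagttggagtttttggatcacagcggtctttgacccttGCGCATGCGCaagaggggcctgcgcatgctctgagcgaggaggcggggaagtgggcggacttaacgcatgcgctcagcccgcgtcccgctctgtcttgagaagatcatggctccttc
Mrpl47, chr3:32736726-32736925, minus strand: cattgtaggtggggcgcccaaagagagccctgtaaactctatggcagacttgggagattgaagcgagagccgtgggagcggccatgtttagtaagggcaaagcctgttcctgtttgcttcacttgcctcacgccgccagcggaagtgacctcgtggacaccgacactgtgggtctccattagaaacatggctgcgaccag
Mrps6, chr16:92058166-92058365, plus strand: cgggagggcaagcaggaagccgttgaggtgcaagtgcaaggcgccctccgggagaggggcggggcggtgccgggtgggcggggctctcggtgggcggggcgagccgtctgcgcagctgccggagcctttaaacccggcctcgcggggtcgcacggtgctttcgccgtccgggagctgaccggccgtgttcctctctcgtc
In Mrps27 the capitals mark the ETS letters, read on the opposite strand, and then the YY1 letters just after the start. In Mrpl39 and Mrpl32 they mark the NRF1 letters; Mrpl32 also holds the YY1 letters, before the printed window.

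The ETS letters were found in 33.8% of member promoters, against 16.4% of 12687 promoters of tested genes and 8.86% of all 32851 promoters in the table. The YY1 letters were found in 16.2%, against 4.17% and 2.75%. The NRF1 letters were in 4.05%, against 1.97% and 0.971%, and the E-box in 9.46%, against 9.69% and 7.15%. These shares count windows, and of the 7 member windows with the E-box 3 are overlapping windows of Mrpl2 that hold the same site. The ETS, YY1 and NRF1 letters were thus more frequent in member promoters than in promoters of tested genes, with no test made, and a match is not evidence of binding. The median log2 fold change was −0.37 in the 25 members with the ETS letters and −0.39 in the 43 without. It was −0.45 in the 12 with the YY1 letters and −0.37 in the 56 without, and −0.56 in the 3 with the NRF1 letters and −0.38 in the 65 without. The 5 members with an E-box had a median of −0.45, against −0.39 in the 63 without.

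After TMM scaling the messages of mitoribosomal proteins were lower in CAPZ_KO, in both subunits. Of the 77 members, all of which were tested, 30 were lower (39.0%) and 0 higher, against a background of 19.0% lower and 22.4% higher (41.4% in either direction) among all tested genes. DESeq2 and limma-voom also called 0 members higher, and 0 had a higher level at an unadjusted p under 0.05. The log2 fold change was negative for 72 members and positive for 5, with a median of −0.39 and quartiles of −0.51 and −0.23. Over all tested genes the median was −0.003 and 50.2% were negative. In 36 members every CAPZ_KO library was below every WT library, against a background of 18.2%.

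The size and the direction of this difference depend on how libraries are set against each other. Scaled by library sizes alone, 22 members were higher and 0 lower (0 at an unadjusted p under 0.05), with a median log2 fold change of 0.244. The median over all tested genes was then 0.622, and 59.0% were called higher and 5.39% lower (64.4% in either direction). Relative to the median of all tested genes, the members stood at −0.383 with TMM and at −0.378 with library sizes alone. Changing the scaling shifts all genes by nearly the same amount, so these values were bound to be close. As a share of all counts the members made up 0.248% ± 0.0357 (SD, n = 4) in WT and 0.291% ± 0.0120 (SD, n = 4) in CAPZ_KO. The 20 genes with the most counts over all libraries together held 28.3% ± 2.24 (SD, n = 4) of the reads counted in WT. In CAPZ_KO the same genes held 20.9% ± 1.39 (SD, n = 4). Every "lower" below is after TMM scaling.

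**Figure D1:**
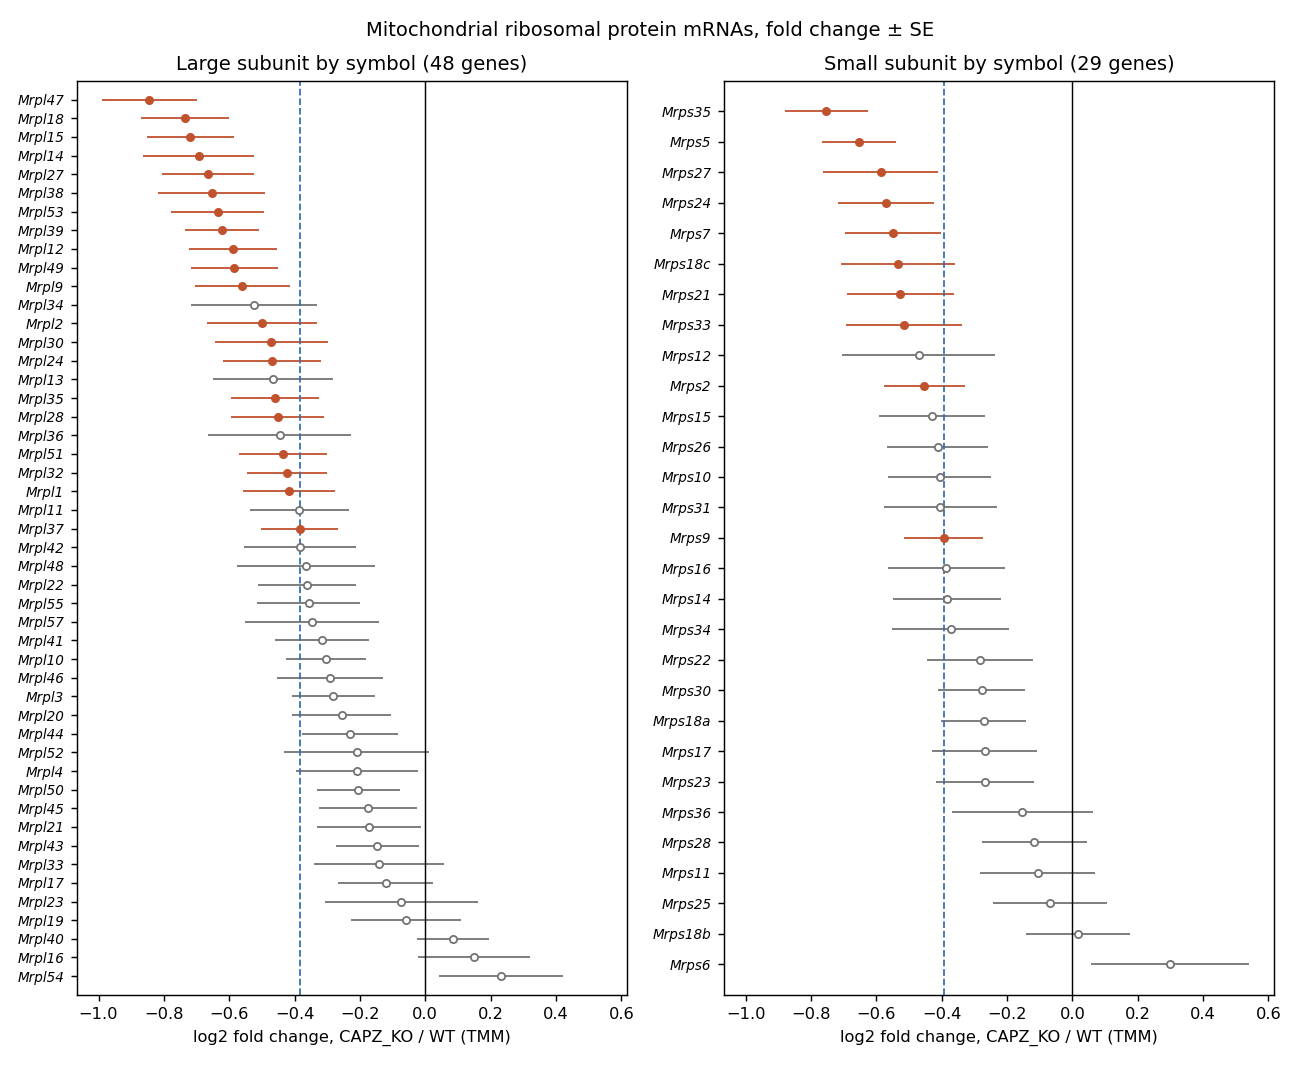
Log2 fold change of CAPZ_KO over WT (x axis, TMM scaling) for each of the 77 members, with bars for SE, filled where the adjusted p is under 0.05; the dashed line is the subunit's median. Values run from −0.84 in Mrpl47 to 0.30 in Mrps6, with 20 of 48 large and 10 of 29 small members lower; with library sizes alone the medians of both subunits are positive.

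The large and the small subunit differed little. Of the 48 large members 20 were lower (41.7%) and of the 29 small members 10 (34.5%), each against the background of 19.0%. Their median log2 fold changes were −0.38 and −0.39, a difference of 0.01, which ranged from −0.0246 to 0.0234 when each library was left out in turn. The ratio of summed large to summed small counts needs no scaling. It was 2.167, 2.169, 2.174 and 2.185 in WT 1 to 4 and 2.149, 2.198, 2.189 and 2.142 in CAPZ_KO 1 to 4. The groups overlapped, with means of 2.174 ± 0.00829 (SD, n = 4) for WT and 2.169 ± 0.0281 (SD, n = 4) for CAPZ_KO. The WT values lay within the range of the CAPZ_KO values. The CAPZ_KO mean was 0.998 of the WT mean.

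Symbols and structure differ for 3 members. Mrps30 and Mrps18a carry small-subunit names but sit in the large subunit, and Mrps36 is now known as a subunit of the oxoglutarate dehydrogenase complex. Their log2 fold changes were −0.28 (adjusted p = 0.119) for Mrps30, −0.27 (adjusted p = 0.119) for Mrps18a and −0.15 (adjusted p = 0.598) for Mrps36, so that none of these was called. Mrps36 was also scarce, at 2.92 ± 0.520 CPM (SD, n = 4) in WT. With Mrps30 and Mrps18a as large and Mrps36 left out, the ratio of large to small was 2.467 ± 0.0212 (SD, n = 4) in WT and 2.489 ± 0.0346 (SD, n = 4) in CAPZ_KO, which again overlapped.

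Members with a bacterial counterpart and members specific to mitochondria were both lower in part, against the background of 19.0%. In the large subunit 14 of 30 with a bacterial counterpart were lower, with a median log2 fold change of −0.43, and 6 of 18 mitochondria-specific members, with a median of −0.33. In the small subunit the counts were 7 of 16, with a median of −0.42, and 3 of 10, with a median of −0.39. The differences between these classes were not tested.

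In the large subunit the lowest fold change belonged to Mrpl47, a protein near the exit of the peptide tunnel (chromosome 3, 32725397 to 32737605, GRCm38). It stood at 16.2, 14.3, 14.6 and 11.9 CPM in WT 1 to 4 and at 7.12, 8.47, 8.35 and 7.77 in CAPZ_KO 1 to 4. All CAPZ_KO libraries lay below all WT libraries, with a log2 fold change of −0.84 ± 0.145 (SE, adjusted p = 0.00131). Mrpl18, of the central protuberance, stood at 51.5, 36.7, 47.8 and 43.2 CPM in WT and 25.9, 30.4, 25.5 and 25.7 in CAPZ_KO. The groups were apart, with CAPZ_KO 2 above the other 3 knockouts, and the log2 fold change was −0.74 ± 0.135 (SE, adjusted p = 0.0019). Mrpl15, a core large-subunit protein with a bacterial counterpart, stood at 107, 81.3, 79.0 and 98.8 CPM in WT and 50.2, 61.6, 56.9 and 53.7 in CAPZ_KO. Again no library overlapped, and the log2 fold change was −0.72 ± 0.134 (SE, adjusted p = 0.00213).

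Mrpl12 (chromosome 11, 120484613 to 120489065) forms the stalk that receives translation factors and also binds the mitochondrial RNA polymerase. Levels per kilobase of transcript are given here as the mean of the WT and CAPZ_KO means. That of Mrpl12 was the highest of all members, at 104.6 CPM per kb, though in CAPZ_KO Mrpl52 was above it (93.8 against 83.6). Mrpl12 stood at 194, 157, 158 and 152 CPM in WT and 92.8, 111, 121 and 116 in CAPZ_KO. WT 1 was the highest of all 8 libraries, the groups were apart without it too, and the log2 fold change was −0.59 ± 0.134 (SE, adjusted p = 0.00601). Mrpl39, whose promoter is shown above, stood at 42.3, 39.6, 47.6 and 41.1 CPM in WT and 27.9, 27.0, 30.1 and 25.8 in CAPZ_KO, with a log2 fold change of −0.62 ± 0.113 (SE, adjusted p = 0.00181). Here WT 1 was in the middle of its group and the groups were apart.

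Other large members with separate groups and large falls were Mrpl14 at the subunit interface, at −0.69, Mrpl27 near the peptidyl transferase centre, at −0.67, Mrpl38 of the central protuberance, at −0.65, and Mrpl53 near the stalk, at −0.64 (adjusted p from 0.00403 to 0.01). Mrpl52 had the next highest level per kilobase, 101.3 CPM per kb, and was not called, at −0.21 (adjusted p = 0.471). Its WT 1 level was 69.4 CPM against 36.0 to 39.4 in the other WT libraries, and without WT 1 its log2 fold change was 0.06. Mrpl2 and Mrpl24 were called lower although their groups overlapped, at −0.50 and −0.47; the other 28 called members had separate groups. The remaining called large members, Mrpl1, Mrpl9, Mrpl28, Mrpl30, Mrpl32, Mrpl35, Mrpl37, Mrpl49 and Mrpl51, had log2 fold changes from −0.58 in Mrpl49 to −0.38 in Mrpl37. The 28 large members that were not called ran from −0.52 in Mrpl34 (adjusted p = 0.0507) to 0.23 in Mrpl54.

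In the small subunit Mrps35, a mitochondria-specific protein, had the lowest fold change (chromosome 6, 147042764 to 147073991). It stood at 39.6, 34.3, 32.6 and 40.8 CPM in WT and 20.2, 25, 21.3 and 20.9 in CAPZ_KO. No libraries overlapped, and the log2 fold change was −0.75 ± 0.127 (SE, adjusted p = 0.00119). Mrps5, which has a bacterial counterpart on the path by which the message enters, stood at 27.3, 30.7, 31.9 and 29.6 CPM in WT and 17.7, 19.9, 20.3 and 18.2 in CAPZ_KO. WT 1 was the lowest WT library here, the groups were still apart, and the log2 fold change was −0.65 ± 0.113 (SE, adjusted p = 0.00137). Mrps27, a pentatricopeptide repeat protein, stood at 55.3, 34.1, 42.5 and 32.8 CPM in WT and 25.5, 28.6, 30.6 and 24.7 in CAPZ_KO. The groups were apart, WT 1 was the highest, and the log2 fold change was −0.59 ± 0.176 (SE, adjusted p = 0.0223).

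Mrps7, of the subunit's head, was lower at −0.55 (adjusted p = 0.0139), Mrps24 at −0.57 (adjusted p = 0.011), Mrps18c at −0.53 (adjusted p = 0.0315), Mrps21 at −0.53 (adjusted p = 0.0255) and Mrps33 at −0.51 (adjusted p = 0.0399). In each of these all CAPZ_KO libraries lay below all WT libraries. Mrps2 and Mrps9 were lower as well, at −0.45 and −0.39, and the 19 small members that were not called ran from −0.47 in Mrps12 (adjusted p = 0.133) to 0.30 in Mrps6. Mrps18c, Mrps21, Mrps27 and Mrps33 were not called in at least 1 fit that left out a library, with adjusted p up to 0.0709, 0.0573, 0.0536 and 0.0958. Per kilobase Mrps21 was the most abundant small member, at 54.6 CPM per kb, followed by Mrps34 at 48.9, which was not called at −0.37 (adjusted p = 0.12). Levels per kilobase ran from 3.3 to 104.6 in the large subunit (median 27.0) and from 2.59 to 54.6 in the small subunit (median 21.4). Across the 77 members the log2 fold change had a Pearson r of −0.0734 and a Spearman rho of −0.146 with the log level per kilobase, and of −0.124 and −0.0858 with transcript length. These are descriptions across genes of the same libraries.

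The positive side held 5 members, none of which was called: Mrps18b at 0.02, Mrpl40 at 0.08, Mrpl16 at 0.15, Mrpl54 at 0.23 and Mrps6 at 0.30. Mrps6, which has a bacterial counterpart, stood at 18.4, 8.55, 10.0 and 9.60 CPM in WT and 17.4, 12.6, 14.2 and 12.6 in CAPZ_KO (chromosome 16, 92058270 to 92112227). WT 1 was the only WT library above any CAPZ_KO library, and the log2 fold change was 0.30 ± 0.243 (SE, adjusted p = 0.349). Mrpl54, a mitochondria-specific large member, stood at 42.4, 26.8, 25.2 and 22.6 CPM in WT and 32.2, 36.3, 36.8 and 31.5 in CAPZ_KO. WT 1 was the highest of all 8 libraries and the other WT libraries were below every CAPZ_KO library. Without WT 1, Mrps6 was called higher, at 0.59 ± 0.16 (SE, adjusted p = 0.017), and Mrpl54 at 0.45 ± 0.118 (SE, adjusted p = 0.0142). Exons of Mrps6 overlap, on the same strand, those of Gm49711, a gene not analysed here, over 19.9% of their length and those of Slc5a3 over 10.4%. Slc5a3 had a log2 fold change of −0.21 (adjusted p = 0.581).

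**Figure D2:**
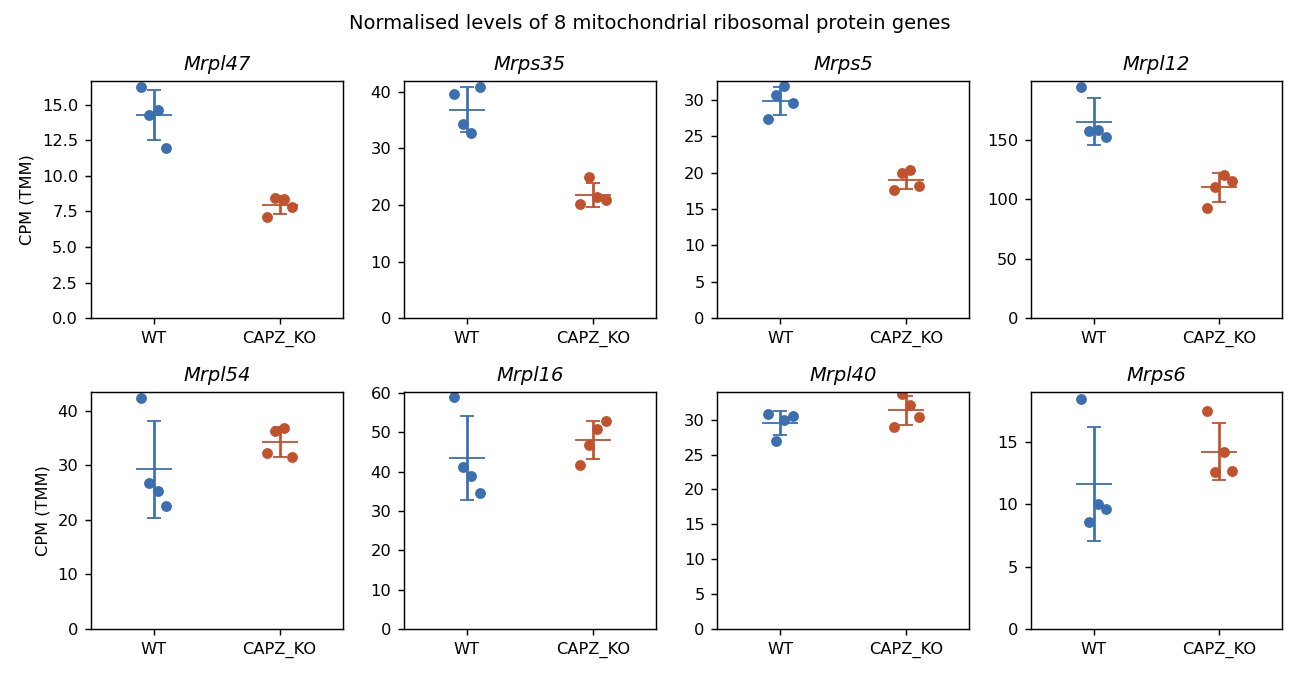
TMM-scaled CPM (y axis, from 0) of 8 members in each library, with group means and SD (n = 4). The top 4 are apart between groups, as in Mrpl47; in Mrpl54 and Mrps6 the library WT 1, the leftmost WT point, lies above the other WT libraries.

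The count of lower members rested in part on single libraries. It ran from 18 to 35 when each library was left out in turn, which is 23.4% to 45.5% of the members, while 15.9% to 20.1% of all tested genes were lower in these fits. Without CAPZ_KO 4 it was 18 (12 large, 6 small), 23.4% against 17.0% of all tested genes, and without CAPZ_KO 1 the large count was 13. Of the 30, 17 were called in every such fit. The other 13 were Mrpl1, Mrpl2, Mrpl24, Mrpl28, Mrpl30, Mrpl35, Mrpl37, Mrpl51, Mrps9, Mrps18c, Mrps21, Mrps27 and Mrps33; without CAPZ_KO 4, 12 of these missed the threshold, all but Mrps9. Without WT 1 it was 26 (17 large, 9 small), 33.8% of the members against 20.1% of all tested genes; all 26 were among the 30, and the median log2 fold change was −0.238. The 4 that missed the threshold without WT 1 were Mrpl1 at −0.31 (adjusted p = 0.0596), Mrpl2 at −0.34 (adjusted p = 0.0575), Mrpl30 at −0.28 (adjusted p = 0.0620) and Mrps33 at −0.45 (adjusted p = 0.0714). Without both libraries with Xist it was 25, of which 24 were among the 30, and 2108 of all genes tested in that fit were lower.

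Mitoribosomal proteins with other symbols are no members by the rule but belong to the same particle. Aurkaip1, of the small subunit, stood at 103, 66.1, 66.6 and 66.8 CPM in WT and 47.4, 49.6, 49.4 and 48.1 in CAPZ_KO. It was lower, at −0.63 ± 0.156 (SE, adjusted p = 0.00899). Ptcd3, a pentatricopeptide repeat protein of the small subunit, was lower at −0.44 (adjusted p = 0.0257), and Ict1, a peptidyl-tRNA hydrolase within the large subunit, at −0.43 (adjusted p = 0.0426); both missed the threshold in some fits without a library. Chchd1 had a log2 fold change of −0.49 (adjusted p = 0.0537), Gadd45gip1 of −0.50 (adjusted p = 0.0979) and Dap3, the GTP-binding protein of the small subunit, of −0.17 (adjusted p = 0.316); none of these was called.

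The rest of the mitochondrial expression machinery was lower in part after TMM scaling, against the background of 19.0% lower among all tested genes. None of its genes was called higher by edgeR, DESeq2 or limma-voom, with 0 at an unadjusted p under 0.05; without WT 1, 1 tRNA synthetase was. Among 15 translation factors 7 were lower, with a median log2 fold change of −0.39. Lrpprc, which keeps mitochondrial messages stable, stood at 128, 129, 152 and 135 CPM in WT and 73.7, 73.3, 76.1 and 87.1 in CAPZ_KO, a log2 fold change of −0.81 ± 0.117 (SE, adjusted p = 0.000474). Mtif3, an initiation factor, was at −0.73 (adjusted p = 0.000828) and Guf1, an elongation factor, at −0.67 (adjusted p = 0.00119). Among 27 assembly and rRNA-modification factors 9 were lower, with a median of −0.38, among them Mterf3 at −0.81, the GTPase Noa1 at −0.77 and Rpusd3 at −0.74. Among 20 mitochondrial tRNA synthetases and related enzymes 6 were lower, with a median of −0.32, among them Nars2 at −0.69 and Gatb at −0.60.

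Of 10 genes for transcription and upkeep of mitochondrial DNA 7 were lower (background 19.0%), with a median of −0.64. Tfam, which packs mitochondrial DNA and starts its transcription, stood at 66.5, 61.1, 57.1 and 73.7 CPM in WT and 35.6, 37.0, 39.2 and 35.3 in CAPZ_KO. The groups were far apart relative to their spread, at −0.81 ± 0.117 (SE, adjusted p = 0.00047). The helicase Twinkle (Peo1 in the table) was at −0.79 (adjusted p = 0.000302) and Polg2, the accessory subunit of the polymerase, at −1.12 (adjusted p = 0.00311). With library sizes alone the median of this list was −0.0187, while those of the translation factors, assembly factors and synthetases were 0.232, 0.254 and 0.306. None of the 15 symbols listed for genes encoded on mitochondrial DNA itself was in the count table, so these genes were not analysed here.

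Of 12 regulators linked to genes of mitochondrial proteins 6 were lower, 0 higher (0 at an unadjusted p under 0.05, and 0 by DESeq2 or limma-voom), with a median of −0.36. The background was 19.0% lower and 22.4% higher. Gabpa, the DNA-binding subunit of the GA-binding protein, stood at 38.5, 49.8, 58.1 and 68.4 CPM in WT and 33.6, 24.9, 27.3 and 35.2 in CAPZ_KO, a log2 fold change of −0.83 ± 0.188 (SE, adjusted p = 0.00588), and Gabpb2, a partner subunit, was at −0.50 (adjusted p = 0.0274). Yy1 was lower at −0.54 (adjusted p = 0.00818). The coactivators Ppargc1a and Ppargc1b were at −1.23 (adjusted p = 0.0357) and −1.25 (adjusted p = 0.0159). Ppargc1a was at 4.61 CPM in WT 1, while WT 2 to 4 had 13.1 to 18.8, so that its groups overlapped; it missed the threshold in 6 of the 8 fits without a library (adjusted p up to 0.0861), and Gabpb2 in 3 (up to 0.0770). Esrrg, an orphan nuclear receptor, was at −2.87 (adjusted p = 0.00813), from low levels of 1.45 to 9.60 CPM in WT; without WT 4, its highest library, it was at −1.83 (adjusted p = 0.00887).

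The other 6 regulators were not called. Nrf1, whose letters were searched above, had a log2 fold change of −0.14 (adjusted p = 0.535), Gabpb1 of 0.09 (adjusted p = 0.693), Esrra of −0.22 (adjusted p = 0.268), Sp1 of −0.004 (adjusted p = 0.985), Myc of 0.67 (adjusted p = 0.206) and Pprc1 of 0.10 (adjusted p = 0.865). Myc stood at 5.04 CPM in WT 1 and at 18.7 or more in WT 2 to 4, and without WT 1 its log2 fold change was 0.37 (adjusted p = 0.189). Pprc1 stood at 35.6 CPM in WT 2, while the rest of the WT group had 9.97 to 10.4. Without WT 2 it was called higher, at 0.79 (adjusted p = 0.00382).

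Set against other large protein complexes, mitoribosomal messages lay between those of the cytosolic ribosome and those of the respiratory chain. Of 35 tested complex I genes 30 were lower, with a median of −0.71, and of 38 genes of complexes II to V 36 were lower, with a median of −0.78. Both were above the background of 19.0% lower. Of 45 tested genes of the cytosolic large subunit 4 were lower (8.89%), with a median of −0.15 (2 lower without WT 1). Of 31 of the small subunit 0 were lower, with a median of −0.19 (2 at an unadjusted p under 0.05, 2 by DESeq2, 0 by limma-voom). Both cytosolic shares were below the background. None of the respiratory or cytosolic genes was higher by any of the 3 tools, with 0 at an unadjusted p under 0.05. Without WT 1, 1 cytosolic small gene was. The cytosolic genes of smallest p were Rpl35a at −0.67 (adjusted p = 0.0164), Rpl11 at −0.47 (adjusted p = 0.0274) and Rpl22 at −0.43 (adjusted p = 0.0335). Without 1 library Rpl11 missed the threshold in 3 of 8 fits (CAPZ_KO 1, 3 or 4 left out, adjusted p up to 0.0680) and Rpl22 in 4 (CAPZ_KO 3 or 4 or WT 1 or 3 left out, up to 0.0849). In the respiratory chain the genes of smallest p in complex I were Ndufb9 at −1.23 (adjusted p = 0.00046), Ndufb3 at −0.91 (adjusted p = 0.000591) and Ndufb10 at −1.14 (adjusted p = 0.000753). In complexes II to V they were Sdha and Sdhb, subunits of complex II, at −0.91 (adjusted p = 0.000448) and −0.99 (adjusted p = 0.00115), and Atp5j, a subunit of the ATP synthase, at −0.90 (adjusted p = 0.000895). Without WT 1 the medians were −0.53 for complex I, −0.60 for complexes II to V, −0.24 for the members, 0.00 for the cytosolic large and −0.03 for the cytosolic small subunit. With library sizes alone they were −0.0809 and −0.151 for the respiratory complexes, 0.244 for the members, and 0.479 and 0.436 for the cytosolic subunits. The direction of the members and of both cytosolic subunits was reversed. The order of the lists was the same, but this scaling shifts all genes nearly alike, so that order is no separate support.

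Ratios of summed counts, which no scaling changes, placed the members between the same lists. Members over cytosolic ribosome was 0.179, 0.171, 0.186 and 0.199 in WT 1 to 4 and 0.157, 0.138, 0.170 and 0.163 in CAPZ_KO 1 to 4. Every CAPZ_KO library was below every WT library, by little between CAPZ_KO 3 and WT 2, and the CAPZ_KO mean was 0.855 of the WT mean. Members over complex I was 0.703, 0.775, 0.744 and 0.716 in WT and 0.958, 0.899, 0.998 and 0.885 in CAPZ_KO. Every CAPZ_KO library was above every WT library, with a mean 1.27 times that of WT. Members over complexes II to V was 0.250, 0.253, 0.248 and 0.232 in WT and 0.334, 0.301, 0.340 and 0.291 in CAPZ_KO. These groups were apart as well, with a mean 1.29 times that of WT. WT 1 lay within the range of the other WT libraries in the ratios to the cytosolic ribosome and to complexes II to V, and was the lowest WT library in that to complex I.

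**Figure D3:**
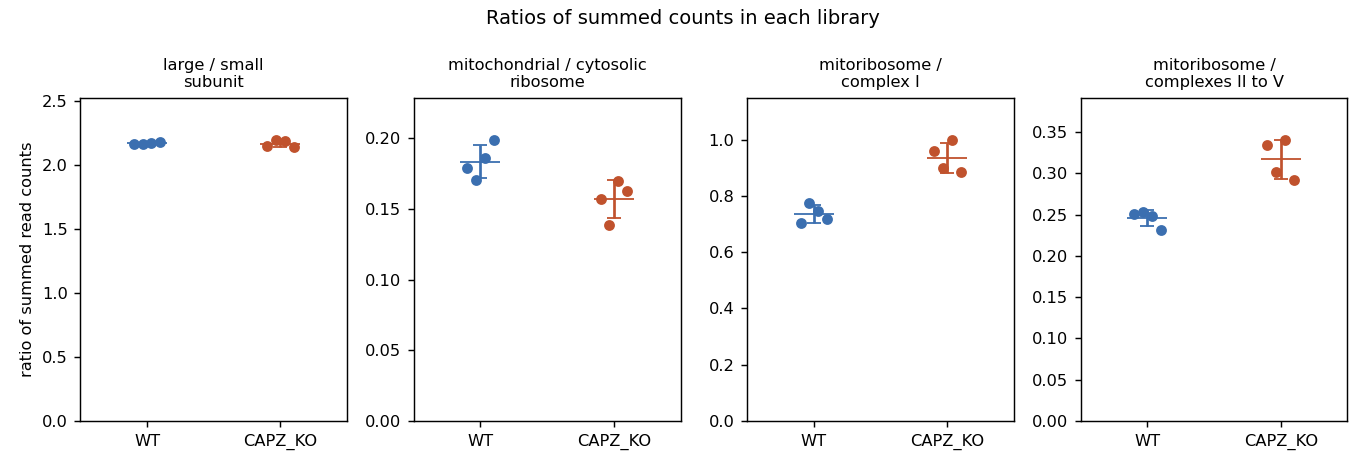
Ratios of summed raw counts (y axes, from 0) in each library, with group means and SD (n = 4). The ratio of large to small members overlaps between groups, at 2.174 in WT and 2.169 in CAPZ_KO, while members over cytosolic ribosome is lower and members over respiratory complexes higher in all 4 CAPZ_KO libraries.

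**Figure D4:**
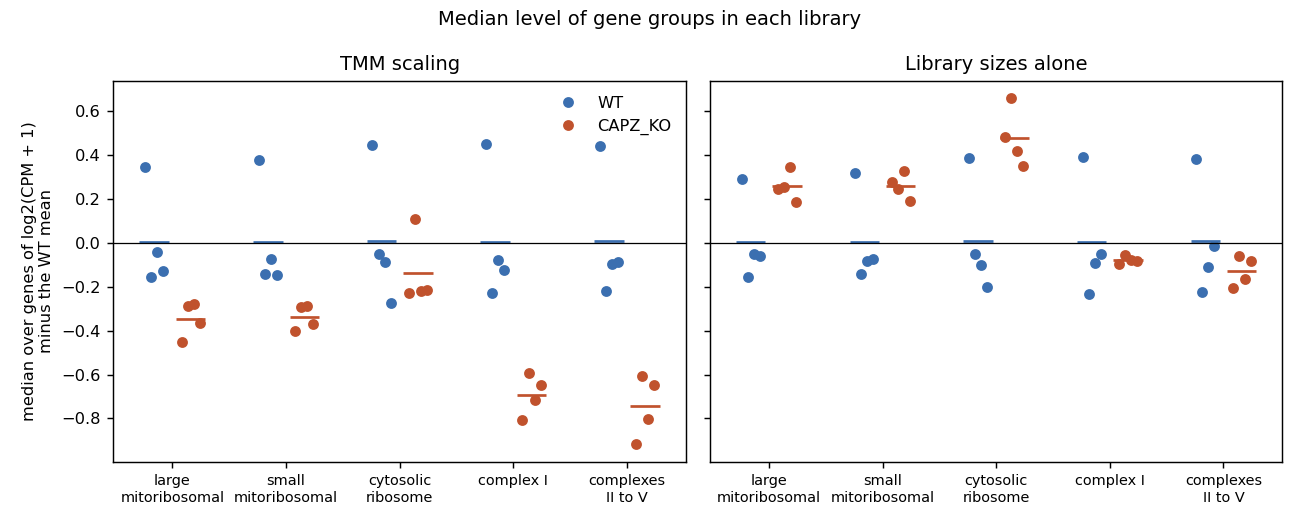
Median over the genes of each group of log2(CPM + 1) minus the WT mean (y axis) per library, with TMM (left) and library sizes alone (right); bars are group means. Large and small members move together, WT 1 (the leftmost WT point) is high in all 5 groups of genes, and the CAPZ_KO points of the members lie below 0 on the left and above 0 on the right.

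**Figure D5:**
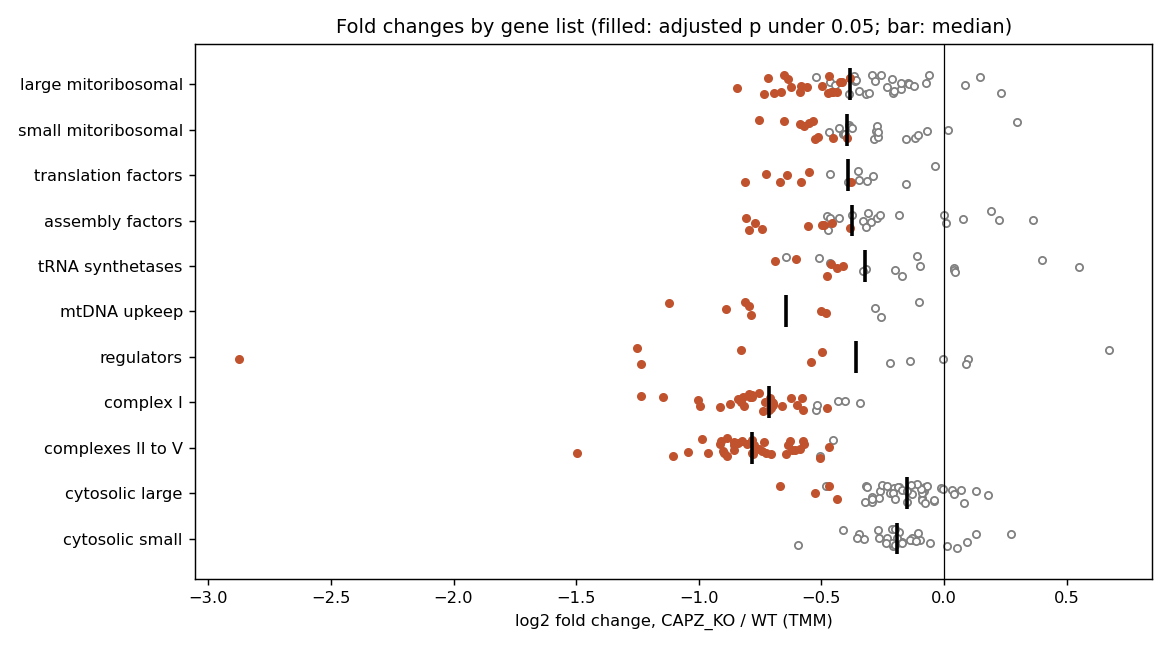
Log2 fold change of CAPZ_KO over WT (x axis, TMM) for each tested gene of the 11 lists, filled where the adjusted p is under 0.05, with a bar at the median. Medians run from −0.78 in complexes II to V to −0.15 in the cytosolic large subunit, with both mitoribosomal subunits near −0.39; with library sizes alone the members' medians are positive.

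Marker levels of several cell types moved with the groups. Hepatocyte markers had a median log2 fold change of −1.42, while 4 of 7 tested cholangiocyte markers were higher (median 3.0, summed 42.7 to 79.6 CPM in WT and 368 to 1087 in CAPZ_KO). Of 9 stellate cell markers 8 were higher (median 1.78, summed 357 to 426 CPM in WT and 877 to 1367 in CAPZ_KO), of 7 Kupffer cell markers 3, of 7 markers of monocyte-derived macrophages 5, of 6 endothelial markers 2 and of 6 cycling genes 5, against the background of 22.4% higher. Without WT 1 the Kupffer count was 1 and the endothelial count 1. Summed levels overlapped between groups for Kupffer markers (589 to 1520 CPM in WT, 1239 to 3653 in CAPZ_KO). They also overlapped for macrophage markers (265 to 447, 382 to 695) and endothelial markers (233 to 386, 301 to 471). For cycling genes they did not (38.3 to 48.7, 67.6 to 128). None of 5 tested markers of T and NK cells and none of 4 of B cells passed the test by edgeR, DESeq2 or limma-voom, with 0 also at an unadjusted p under 0.05. Of the erythroid list the 4 globin genes were listed at 0, and Alas2, which makes the first haem precursor in red cells, was lower at −2.82 (adjusted p = 0.00469). The part of these differences in the lower mitoribosomal messages was not tested. In bulk liver, fewer cells of a type and less RNA per cell cannot be told apart.

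The 77 members lie on 17 chromosomes, 10 of them on chromosome 11. Within 1000 bases of their start (or overlapping it by up to 500), 26 members (33.8%) had the start of an opposite-strand gene that runs the other way, against 13.9% of 12196 tested protein-coding genes. Of 23 tested partners that were no members, 8 were lower (background 19.0%) and 2 higher (background 22.4%), with a median log2 fold change of −0.26. Mrps27 and its partner Ptcd2, 81 bases away, stood at −0.59 and −0.58, and Mrps5 and Zfp661 at −0.65 and −0.63. Other pairs differed in sign: Mrpl57, which was not called, stood at −0.35 and its partner Ska3, a gene of chromosome segregation, at 2.65. Lower partners also stood beside members with positive fold changes: Ppp1r10 at −1.04 beside Mrps18b at 0.02, and Apba3 at −0.45 beside Mrpl54 at 0.23. Mrps11 and Mrpl46, which are partners of each other, stood at −0.11 and −0.29.

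In GENCODE, 27 members share exon sequence with an opposite-strand gene and 8 with another gene of their own strand. Whether counting used the strand is not given in the sources used here, so reads of such genes may be divided in unknown ways. Among called members, Mrpl53 shares 88.0% of its exon length with Gm42688 on the same strand, and Mrpl47 13.9% with Ndufb5 on the opposite strand. Among those not called, Mrps25 shares 69.8% with Nr2c2 and Mrps34 63.4% with Mapk8ip3, both on the opposite strand. Mrps34 also shares 37.0% with Nme3 on the same strand.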

How the data were processed

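Poly(A) RNA of perfused liver was sequenced from 4 WT and 4 CAPZ_KO libraries as stranded libraries, per the labels' protocols. The authors deposited unscaled read counts for each gene symbol. The submitters' processing notes name build mm10 and, with no order, STAR 2.5.3a, bcl2fastq, edgeR, featureCounts and R 3.3.1; the annotation and strand setting are not given in these sources. Reads of overlapping genes may be split or lost.

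All 24421 symbols were fitted together: filterByExpr (minimum count 10, minimum total 15) kept 12985 genes and removed 0.0451% to 0.109% of a library's counts. TMM factors ranged from 0.774 to 0.847 (WT) and 1.18 to 1.33 (CAPZ_KO). The edgeR 4.0.16 quasi-likelihood test with robust dispersion in R 4.3.3 had no covariate, with Benjamini-Hochberg adjustment over all tested genes and a threshold of 0.05. Adjusted p are from edgeR unless another tool is named. The common biological coefficient of variation was 24.9%, and members had 361 to 17311 counts over all libraries. The test was checked on simulated counts with known changes in genes drawn from all tested genes. It called 3 of 50 genes changed 1.5-fold, 23 of 48 changed 2-fold and 44 of 48 changed 4-fold. Of 12581 unchanged genes it called 9. Changes of 1.5-fold were thus mostly missed in this check, where most genes were unchanged. In the data 41.4% of tested genes were called, so a given p passed the adjusted threshold more easily. Called members had log2 fold changes of −0.84 to −0.38, all below 2-fold, so the check does not describe detection among them.

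Members and lists were chosen with earlier results of these data known. Named genes were Capzb, called members with separate groups (up to 8 falls and 8 rises per subunit), the 2 most abundant per kilobase in each subunit, members with a structural note, mitoribosomal proteins with other symbols, up to 3 called genes of smallest p per list, and all regulators; 1 gene that this rule names is not reported here. Other members, head-to-head partners and genes with overlapping exons were named after their values were seen. A few listed symbols were read under older names (Twnk as Peo1). Positions and lengths are from GENCODE M21 (GRCm38). No library was a duplicate of another in its group (chi-square divided by its degrees of freedom, 26.7 or more). Alternatives were other scalings, filters and thresholds, DESeq2 1.42.0, limma-voom 3.58.1, a replicate block and leaving out libraries.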

Additional observations from a re-analysis of the deposited data

Results flagged for a closer look

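In 6 of 68 sets of 4 libraries, from 34 genes and ratios, 1 library lay so far from the nearest other that the gap passed Dixon's critical value; chance gives about 1 in 20. In WT 1, 4 members stood above the other WT libraries: Mrpl12 at 194.3 CPM (others 152.2 to 157.8), Mrpl52 at 69.4 (36.0 to 39.4), Mrps34 at 71.8 (42.6 to 45.1) and Mrps6 at 18.4 (8.55 to 10.0). WT 1 was also the highest WT library in 66 of 77 members. In CAPZ_KO 2, Mrpl18 stood at 30.4 CPM, against 25.5 to 25.9 in the other knockouts. In CAPZ_KO 3, Mrpl53 stood at 26.9 CPM, against 23.6 to 23.9.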

How the results depend on the processing

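Direction rests on the scaling. By library sizes only, 7665 genes passed as higher and 700 as lower, 22 members were higher (14 large, 8 small) and 0 lower in either subunit, and Capzb stood at −0.10. Median log2 fold changes were then 0.244 for the members, 0.245 for the large and 0.224 for the small subunit, 0.232 for translation factors, 0.254 for assembly factors, 0.306 for tRNA synthetases, −0.0187 for upkeep of mitochondrial DNA, 0.260 for regulators, 0.479 and 0.436 for the cytosolic subunits, −0.0809 for complex I and −0.151 for complexes II to V. Reported genes of the naming rule above that were negative with TMM and positive with library sizes were Chchd1 0.15, Dap3 0.46, Esrra 0.39, Gabpb2 0.13, Gadd45gip1 0.13, Gatb 0.016, Ict1 0.20, Mrpl12 0.037, Mrpl39 0.0058, Mrpl52 0.42, Mrps18a 0.36, Mrps18c 0.10, Mrps21 0.10, Mrps24 0.054, Mrps27 0.047, Mrps30 0.35, Mrps33 0.11, Mrps34 0.26, Mrps36 0.48, Mrps7 0.081, Nrf1 0.49, Ptcd3 0.18, Rpl11 0.16, Rpl22 0.20, Sp1 0.62 and Yy1 0.085. Every called member outside that rule was positive with library sizes as well, from 0.042 in Mrpl49 to 0.24 in Mrpl37. The cause was not tested. Upper quartile scaling left 19 members lower (13 of 48 large, 6 of 29 small), with 2034 of all 12985 tested genes lower. With TMM a threshold of 0.01 left 12 (10 of 48 large, 2 of 29 small), with 1864 of all 12985 tested genes higher and 1439 lower. The share of lower small members was then below that of all tested genes. DESeq2 called 37 members and 2847 of all genes lower, limma-voom 29 and 2437.

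Leaving out each library gave 18 to 35 lower members, 12 to 23 large and 6 to 13 small; 0 to 2 were higher, 0 to 1 in each subunit. Log2 fold changes ranged over −0.37 to 0.056 for Mrpl52, −0.053 to 0.20 for Gabpb1, −0.087 to 0.79 for Pprc1 and −0.11 to 0.038 for Sp1. Sp1 was also 0.0081 with a CPM filter, 0.000304 with no filter and 0.0779 with upper quartile scaling. Without the libraries with Xist, Sp1 was 0.0439 and Pprc1 −0.0123. With a replicate block 26 members (17 large, 9 small) and 2411 of all tested genes were lower. The 26 were all among the 30, and the median over all members was −0.370. Same-numbered libraries correlated by 0.0307 to 0.304, not all above 0.1. Each library correlated best with its own number except CAPZ_KO 2, which did so with WT 4. WT 2 correlated with CAPZ_KO 3 by 0.0297, close to the 0.0307 with its own number. The 0.304 was between WT 4 and CAPZ_KO 4, which also share Xist, so number and Xist cannot be told apart there. This is at most a weak hint from the data, and the labels give no pairing. Over all libraries a member had 361 to 17311 counts, so counting error weighs most on scarce members such as Mrps36, and members that were not called may differ too.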
